A study of Oryza sativa with 6 samples.

Results

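DREB factors are transcription factors of the AP2/ERF family that bind the dehydration-responsive element in the promoters of stress genes. DREB1 genes, also called CBF genes, are switched on mainly by cold in rice and other plants, and DREB2 genes mainly by drought, salt or heat. Their products raise the expression of genes that protect cells during cold and water loss, such as dehydrins and enzymes that make protective sugars. Here they were examined in rice, in young inflorescences of a mutant called sro and of wild type. The genes were those with a symbol or synonym beginning with DREB1 or DREB2 in the RefSeq gene table, taken with every array probe set that names that gene alone. The rule found 13 genes, of which 8 had at least 1 such probe set (11 probe sets in all), out of 17905 genes and 57258 probe sets on the array. No probe set of DREB1F, DREB1H, DREB1I, DREB1J or DREB2C was used, and a probe set that names DREB2A together with another gene was left out.

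Expression was measured with 6 Affymetrix arrays for rice, 3 for the sro mutant and 3 for wild type. The labels name the Japonica variety 9522 beside wild type and give no other for sro. Inflorescences of 4-5 mm were collected as biological replicates from paddy-grown plants that received no special treatment. The labels give neither the sro allele and its lesion nor the number of lines, and SRO itself was not checked, since the gene tables do not name it. The family was selected on the large rise of DREB1B between these same arrays, so the difference of DREB1B between the genotypes is described without a test. The other genes were taken by symbol, and their adjusted p-values come from the limma fit over all probe sets. Each value below is a log2 intensity, so that a step of 1 is a doubling, and a gene was called at an adjusted p under 0.05.

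The 10 inflorescence markers, 9 MADS-box genes and DL, were all above the fungal control level in both genotypes, 5 were called higher in sro and none lower. Over all genes, each by its brightest probe set, 7.28% were called higher and 19.4% lower. Of 5 measured leaf genes, CAB2R, a chlorophyll-binding protein gene, fell by 1.27 and PORA, a chlorophyll synthesis gene, by 1.05 on the log2 scale. The remaining leaf genes did not pass the test and RBCS1 lay below the fungal level. The summed log2 level of the leaf genes ran from 35.5 to 36.6 in wild type and from 33.80 to 34.02 in sro, and the part of leaf tissue in the results below was not tested. In whole inflorescences, fewer cells that express a gene and less of its RNA per cell cannot be told apart. A probe set for the dap labelling spike, near its 5 prime end, read 7.08 to 7.12 in wild type and 9.74, 7.46 and 9.03 in sro replicates 1, 2 and 3 (exact permutation test, two-sided, p = 0.1, which is the lowest value possible with 3 arrays per group). The 3 prime minus 5 prime difference of actin, a sign of RNA quality and labelling, was 5.13, 5.24 and 5.17 in wild type and 4.46, 4.94 and 4.90 in sro, with no overlap (exact permutation p = 0.1). That of GAPDH did not go the same way. It was 0.39, 0.52 and 0.51 in wild type and 0.42, 0.70 and 0.75 in sro, with overlap (exact permutation p = 0.3). The part of these controls in the results below was not tested.

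Among the DREB1 genes, 4 of the 5 that could be measured were higher in sro on every array, and DREB1C was near or below the level of the fungal controls in both genotypes. For comparison, 17.0% of all probe sets were higher on every sro array. The 4 genes include DREB1B, on whose rise the family was selected. None of the 3 measured DREB2 genes was called in either direction. DREB1B (LOC4347618, chromosome 9), a cold-induced member, read 7.28, 8.86 and 7.91 in wild type replicates 1, 2 and 3. In sro replicates 1, 2 and 3 it read 11.10, 11.37 and 11.27. All sro arrays lay above all wild-type arrays, and the smallest difference between an sro and a wild-type array was 2.24. The mean difference was 3.23 (SE 0.33), a 9.41-fold difference that ranked 17 among the 57258 probe sets from the largest rise down. In sro replicate 2, whose dap spike was nearest to wild type, DREB1B was 3.36 above the wild-type mean. That is a single array, and the part of labelling in the DREB1B difference was not tested.

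**Figure D1:**
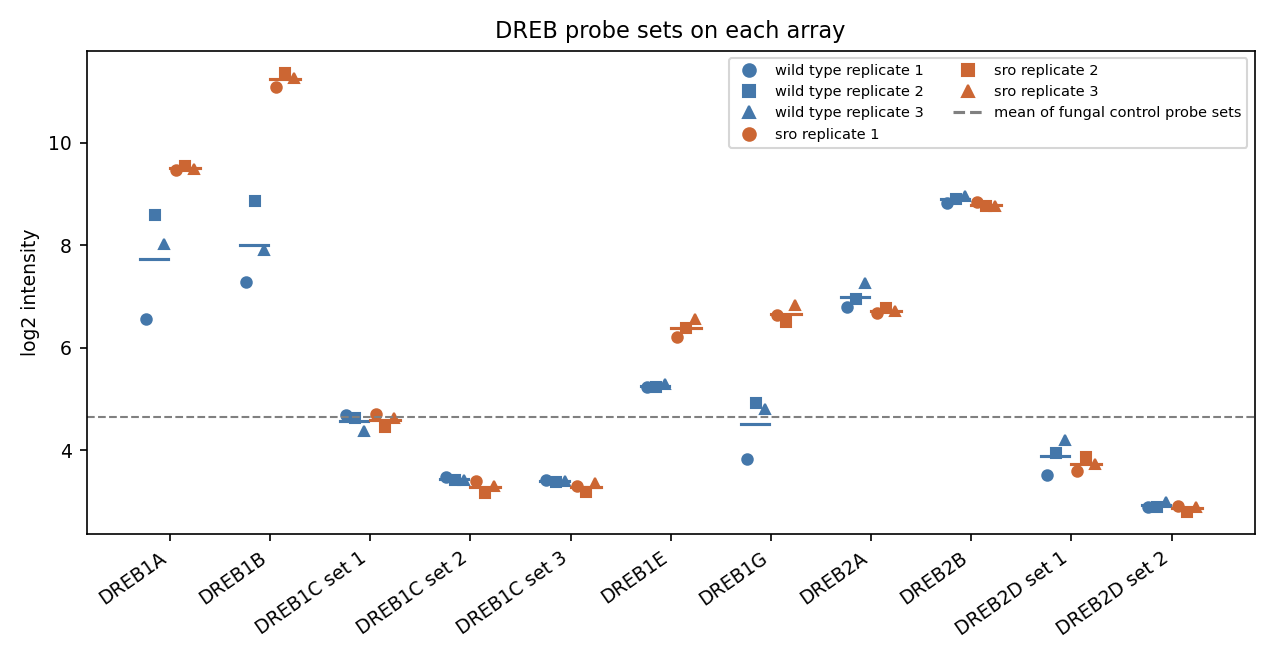
Log2 intensity (vertical axis) of the 11 DREB probe sets (horizontal axis) on each of the 6 arrays. Symbols mark replicates, short lines mark group means of 3 arrays and the dashed line is the wild-type mean of the fungal control probe sets, 4.65. DREB1A, DREB1B, DREB1E and DREB1G lie higher on every sro array than on any wild-type array, and the probe sets of DREB1C and DREB2D lie near or below the dashed line.

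DREB1A (LOC4347620, chromosome 9), whose overproduction in rice raises tolerance of cold, drought and salt, read 6.57, 8.59 and 8.03 in wild type replicates 1, 2 and 3. Its sro arrays read 9.47, 9.55 and 9.48, which were all higher than the wild-type arrays and far closer to one another. DREB1A rose by 1.77 (SE 0.43, limma adjusted p = 0.0296), a 3.42-fold difference. Nearly all of its spread was in wild type, with an SD of 1.04 against 0.04 in sro (n = 3 each). The call was lost when wild type replicate 3 or any 1 sro array was left out (differences of 1.75 to 1.92, limma adjusted p between 0.068 and 0.0811). It was also lost in a linear model without moderation (limma fit without eBayes, adjusted p = 0.177) and with a mean-dependent robust prior (limma adjusted p = 0.137), at the same difference. Without wild type replicate 1, the lowest array, the difference was 1.19 (limma adjusted p = 0.00491).

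DREB1G (LOC4330306, chromosome 2), a DREB1 member that is also cold-induced in rice, read 3.82, 4.92 and 4.81 in wild type and 6.64, 6.51 and 6.83 in sro. The wild-type mean of 4.52 was below the fungal control level of 4.65 in wild type, so the fold is a lower limit. The gene was at least 3.58-fold higher in sro, with a log2 difference of 2.14 (SE 0.26, limma adjusted p = 0.00179). Every sro array was at least 1.58 above every wild-type array. DREB1G kept its call whichever array was left out, with differences from 1.79 without wild type replicate 1 to 2.34 without wild type replicate 2.

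DREB1E (LOC4336721, chromosome 4) read 5.24, 5.23 and 5.30 in wild type and 6.22, 6.39 and 6.57 in sro. It rose by 1.14 (SE 0.09, limma adjusted p = 0.000293), a 2.20-fold difference, and the smallest gap between an sro and a wild-type array was 0.92. Its wild-type arrays were close together (SD 0.04), unlike those of DREB1A, DREB1B and DREB1G. The call held whichever array was left out, at 1.05 to 1.22.

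DREB1C (LOC4339974, chromosome 6) has 3 probe sets. The brightest read 4.70, 4.63 and 4.38 in wild type and 4.70, 4.46 and 4.62 in sro, with overlapping groups and a difference of 0.03 (SE 0.10, limma adjusted p = 0.897). On the others, values ran from 3.38 to 3.48 in wild type and from 3.17 to 3.39 in sro, below the fungal controls on every array. Their sro arrays were all lower than their wild-type arrays, by means of 0.15 and 0.12 (limma adjusted p = 0.199 and 0.281). No level of DREB1C above that of the fungal controls was seen in either group mean, so no fold is given.

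DREB2A (LOC4324418, chromosome 1), a factor of drought and salt responses, read 6.79, 6.95 and 7.26 in wild type and 6.69, 6.77 and 6.71 in sro. All sro values lay below all wild-type values, by as little as 0.02, and the mean difference of -0.28 (SE 0.11) did not pass the test (limma adjusted p = 0.146). Its wild-type arrays were again the wider group (SD 0.24 against 0.04). DREB2B (LOC4338484, chromosome 5), which in rice is spliced into an active form under stress, read 8.83, 8.90 and 8.96 in wild type and 8.85, 8.77 and 8.76 in sro. Its groups overlapped, with a difference of -0.10 (SE 0.06, limma adjusted p = 0.323). DREB2D (LOC4339084, chromosome 5) was below the fungal control level on all 6 arrays with both of its probe sets. The brighter ran from 3.52 to 4.20 in wild type and from 3.59 to 3.87 in sro (difference -0.16, SE 0.16, limma adjusted p = 0.565), and the dimmer from 2.89 to 2.99 and from 2.80 to 2.92.

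Counted over the 10 probe sets of genes other than DREB1B, 3 were called higher, 0 lower and 7 not called at a limma adjusted p under 0.05. Over all probe sets, 5.59% were called higher, 9.04% lower and 14.6% in either direction. The groups did not overlap in 7 of the 11 DREB probe sets, 4 with sro higher and 3 with sro lower. Over all probe sets, groups did not overlap in 34.6%, with 17.0% higher on every sro array and 17.6% lower. Since the family was chosen with these differences known, nothing is read from its share of calls. The median difference of the 11 probe sets was -0.06, against 0.02 over all 57258, and 5 of the 11, those of DREB1C and DREB2D, had group means below the fungal control level.

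DREB1B and DREB1A lie close together on chromosome 9 with DREB1H between them, and these 3 are consecutive entries of the gene table. Of the 11 nearest measured genes around DREB1B that are not DREB genes, 0 were called higher and 2 lower, with differences from -0.39 to 0.16. The nearest measured genes on either side, GEN1 and LOC4347621, differed by -0.08 (SE 0.07) and -0.10 (SE 0.06). Around DREB1G on chromosome 2, 0 of 12 measured neighbours were called higher and 4 lower, from -0.50 to 0.15. Around DREB1E on chromosome 4, 1 of 12 was called higher and 1 lower. The gene called higher, LOC4336717, rose by 1.02 (SE 0.09), close to the 1.14 of DREB1E itself. Over all genes, each by its brightest probe set, 7.28% were called higher and 19.4% lower.

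**Figure D2:**
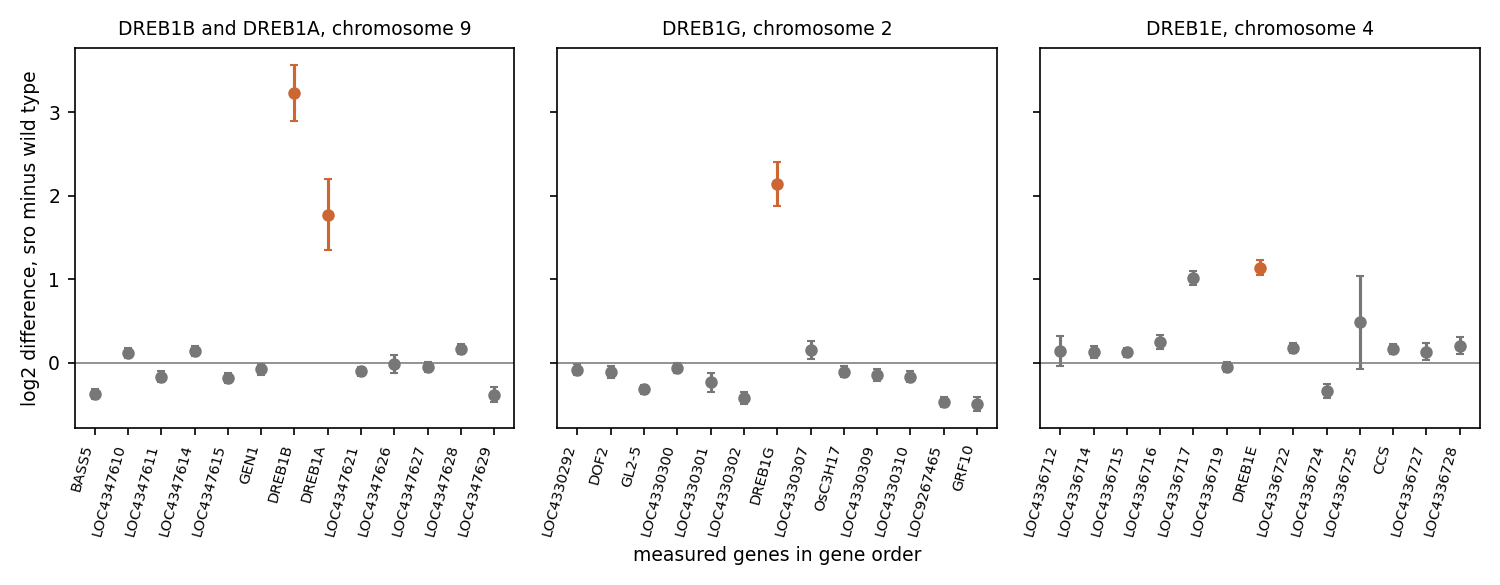
Log2 difference, sro minus wild type (vertical axis, bars are the standard error of the limma fit), of DREB genes in orange and of the nearest 6 measured genes on each side in grey, in gene order (horizontal axis). The chromosome 9 panel holds DREB1B at 3.23 and DREB1A at 1.77 between neighbours from -0.39 to 0.16, and in the chromosome 4 panel LOC4336717 at 1.02 and DREB1E at 1.14 are separated by LOC4336719 at -0.05.

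A feature that the choice of the genes did not use was the spread among wild-type arrays. DREB1A, DREB1B and DREB1G had wild-type SDs of 1.04, 0.79 and 0.61, larger than those of 99.9%, 99.9% and 99.7% of probe sets. The median wild-type SD was 0.09 over all probe sets. In each of the 3 genes wild type replicate 2 was highest, replicate 3 next and replicate 1 lowest, an order found in 14.6% of all probe sets. The order was not particular to DREB genes, since 11 of the 21 genes called higher in the lists below had it. Genes that were not called had it too, such as salT (8.24, 10.10 and 9.48 in wild type replicates 1, 2 and 3) and rab25 (7.63, 9.12 and 8.58). After each genotype's mean was subtracted, DREB1A followed DREB1B over the 6 arrays with a Pearson correlation of 0.92 and DREB1G with 0.80. DREB1E stood at 0.04. The DREB1G wild-type mean of 4.52 was below the fungal control level, with replicate 1 at 3.82. Its spread, order and correlation therefore rest in part on a value not above background. These correlations describe 6 arrays on which RNA, labelling and normalization are shared by all genes, and rest mainly on wild type replicates 1 and 2. With wild type replicate 1 left out, the difference was 2.87 for DREB1B, 1.19 for DREB1A and 1.79 for DREB1G, and with wild type replicate 2 left out it was 3.66, 2.20 and 2.34.

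The genes most like DREB1B were sought by 2 measures among 2458 other genes with a name. The first was the root mean square difference over the 6 arrays after each gene's own wild-type mean was subtracted. The genotype difference stays in this measure, so it favours genes whose rise is near that of DREB1B, on which the family was selected. The closest was TPP7 (LOC4346885), a trehalose phosphate phosphatase gene, at 0.30. It read 6.93, 7.92 and 7.76 in wild type and 11.04, 10.98 and 10.97 in sro, with the order of wild-type arrays that DREB1B has. Next came the calmodulin-like gene CML15 at 0.35, the aquaporin gene NIP4-1 at 0.58, the tapetum gene RTS at 0.63 and BURP16, a BURP-domain gene, at 0.63. Their differences between the genotypes were 3.46 for TPP7, 3.23 for CML15, 2.46 for NIP4-1, 3.68 for RTS and 2.59 for BURP16. The wild-type arrays of NIP4-1 and RTS averaged below the fungal control level, so their differences and their likeness to DREB1B rest on wild-type values that were not above background. On the same measure DREB1G stood at 0.82 and DREB1A at 1.06.

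The second measure was the Pearson correlation with DREB1B of deviations from the genotype means over the 6 arrays, among 81 genes with a pooled within-genotype SD of at least 0.3. The highest was TIP3-1 (OsTIP3), a tonoplast aquaporin gene, at 0.99. It was followed by MFT1, a gene of the family of FT and TFL1, at 0.98, the jasmonate repressor gene JAZ12 at 0.97, the potassium transporter gene HAK1 at 0.97 and AT7 at 0.96. Their differences between the genotypes were 0.46 for TIP3-1, 0.79 for MFT1, 0.58 for JAZ12, -0.22 for HAK1 and -0.12 for AT7, against 3.23 for DREB1B. HAK1 read 7.75, 9.11 and 8.53 in wild type and 8.14, 8.25 and 8.34 in sro, so its sro arrays lay within the range of its wild-type arrays.

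**Figure D3:**
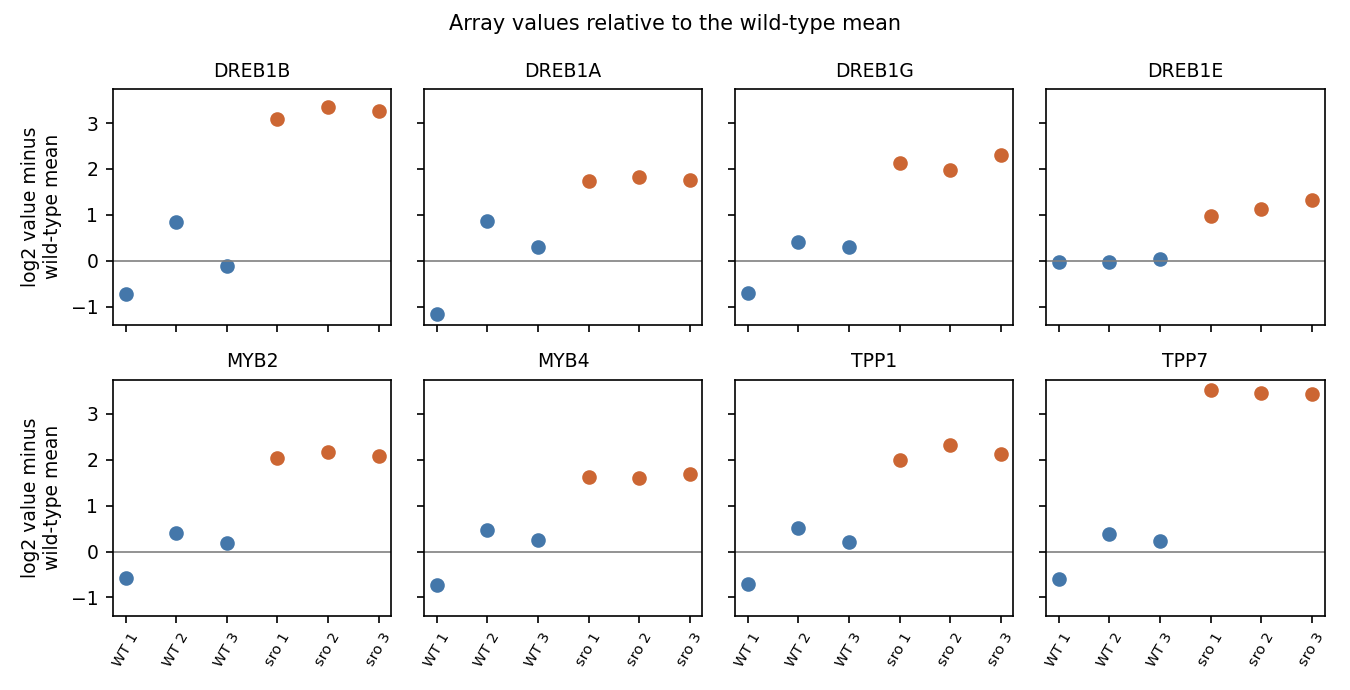
Log2 value minus the wild-type mean of the same gene (vertical axis) on each array (horizontal axis, WT is wild type), for 4 DREB1 genes and 4 other stress genes. Wild type replicate 1 is lowest and replicate 2 highest in every panel except that of DREB1E, and the sro arrays lie above the wild-type arrays in every panel. The panels were picked, with TPP7 found by its likeness to DREB1B, so nothing is read from the order they share. MAPK5 and HSFC2A, called higher but not shown, had wild type replicate 1 highest and replicate 2 lowest.

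Factors known to act upstream of DREB1 genes, or beside them in cold and drought signalling, were examined as a list of 27 measured genes, each by its brightest probe set. In sro, 7 were called higher, 3 lower and 17 not called, with a median difference of 0.04. Over all 17905 genes, 7.28% were called higher and 19.4% lower, and the median was -0.06. The list was drawn up with earlier results of these data known, so nothing is read from its share of calls. MYB2 (LOC4332651), a MYB factor that raises stress tolerance when overproduced in rice, read 4.38, 5.35 and 5.13 in wild type and 7.003, 7.118 and 7.048 in sro. It rose by 2.10 (SE 0.22, limma adjusted p = 0.000895), or 4.29-fold. MYB4 (LOC4336407), a cold-induced MYB factor, read 7.48, 8.68 and 8.46 in wild type and 9.84, 9.82 and 9.90 in sro. It rose by 1.64 (SE 0.27, limma adjusted p = 0.00566), and by 1.20 on its second probe set. The first missed the threshold in a linear model without moderation (adjusted p = 0.0822). Both MYB genes had the wild-type order of DREB1B, and their deviations correlated with its own at 0.91 and 0.88 over 6 arrays. MYB2 wild type replicate 1, at 4.38, was below the fungal control level of 4.65. The order, correlation and fold of MYB2 therefore rest in part on a value not above background.

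Smaller rises were called for OsSAPK9, a SnRK2 kinase gene of abscisic acid and osmotic stress signalling, by 0.75 (SE 0.06), and for MAPK5, a stress-activated kinase gene, by 0.55 (SE 0.08). The DREB1 repressor gene MYBS3 (myb30 in the gene table), singled out after its values were seen, rose by 0.33 (limma adjusted p = 0.00637) on its brightest probe set and stood at 0.08 (limma adjusted p = 0.497) on the other. The genes called lower were MPK6 (-0.33), OsSAPK7 (-0.22) and the MAPK6 gene LOC4340170 (-0.21). Their limma adjusted p were 0.00614, 0.0456 and 0.0398. The MAPK5 wild-type arrays ran the opposite way to those of DREB1B, with replicate 1 highest and replicate 2 lowest.

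Of 19 measured genes for protection against cold and water loss, many of them DREB targets in rice or members of target families in Arabidopsis, 3 were called higher, 3 lower and 13 not called. Their median difference was 0.08, against -0.06 over all genes, of which 7.28% were called higher and 19.4% lower. The list had 1 gene with a difference above 1. OsTPP1 (LOC4330221), a trehalose phosphate phosphatase gene that acts in chilling and salt tolerance of rice, read 6.15, 7.36 and 7.05 in wild type and 8.85, 9.17 and 8.97 in sro. It rose by 2.14 (SE 0.27, limma adjusted p = 0.002), or 4.42-fold, and its deviations correlated with those of DREB1B at 0.92 over 6 arrays. In a linear model without moderation it missed the threshold at the same difference (adjusted p = 0.0516). LTI6B, a small membrane protein gene induced by low temperature, rose by 0.78 (SE 0.06), and EM, a late embryogenesis abundant protein gene, by 0.74 (SE 0.06). OsP5CS2, a proline synthesis gene, fell by 0.69 (SE 0.07) on its brightest probe set, while its 3 dimmer probe sets were below the fungal control level in both genotypes and bear no information on that fall. Also called lower were LTI6A (-0.35, limma adjusted p = 0.00833) and OsTPP2 (-0.36, limma adjusted p = 0.0191). Dhn1 and the RAB genes of the list were not called, with differences from -0.20 for RAB21 to 0.30 for RAB16D.

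**Figure D4:**
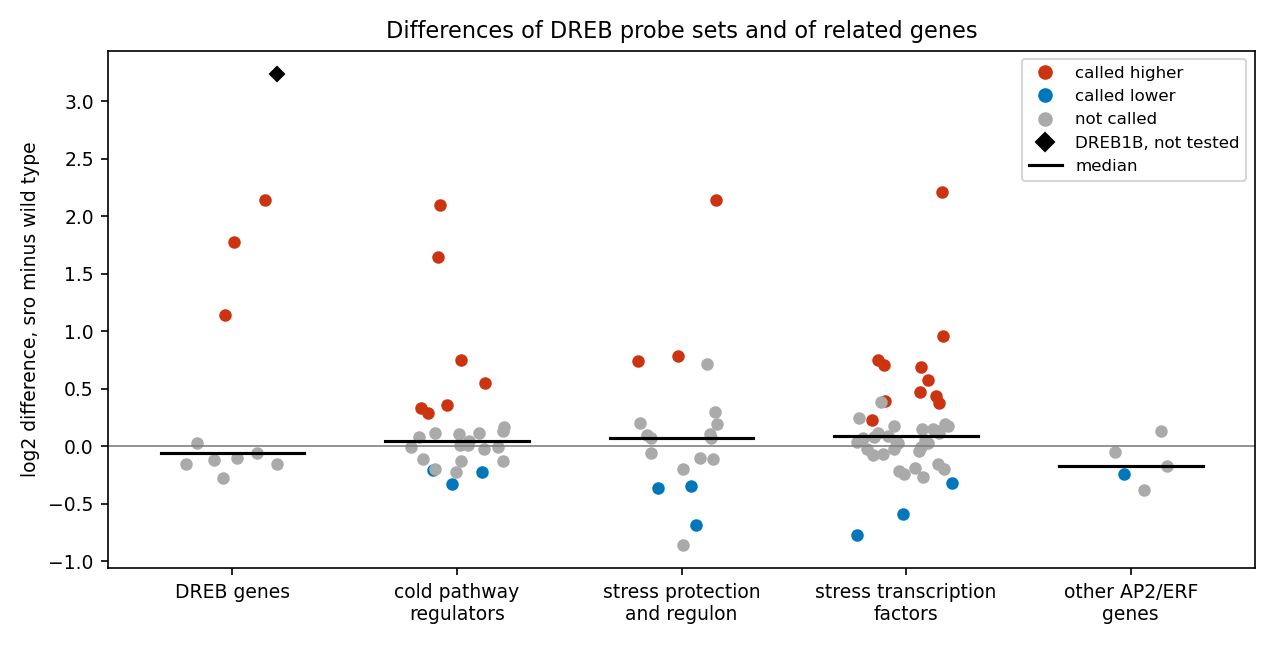
Log2 difference, sro minus wild type (vertical axis), of the 11 DREB probe sets and of the genes of 4 lists, 1 probe set per gene (horizontal axis; points are spread sideways for legibility). Colours give the limma call at an adjusted p under 0.05, the diamond is DREB1B, which was not tested, and horizontal lines are medians, which lie between -0.17 and 0.09.

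Stress transcription factors of other families were examined with 44 measured genes of the NAC, heat shock factor, A20/AN1 zinc finger, bZIP and bHLH families. Of these, 11 were called higher, 3 lower and 30 not called, with a median difference of 0.09. Over all genes 7.28% were called higher and 19.4% lower. Nothing is read from the share of calls in this list either, which was also drawn up with earlier results known. In a linear model without moderation 4 were called higher and 2 lower, and without sro replicate 3 the counts were 6 and 2. BHLH148, which interacts with JAZ proteins and raises DREB1 expression when overproduced in rice, read 5.62, 5.73 and 5.70 in wild type and 7.90, 8.05 and 7.74 in sro. It rose by 2.21 (SE 0.09, limma adjusted p = 7.38e-06), with little spread among wild-type arrays. The heat shock factor genes HSFC1B and HSFC2A rose by 0.96 and 0.71 (SE 0.06 and 0.08), and HSFB1 fell by 0.59 (SE 0.06).

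The other AP2/ERF genes found by symbol pattern were 6, of which 5 were measured, too few for a statement on the family. EREBP-1, an ERF gene, fell by 0.24 (SE 0.06, limma adjusted p = 0.0255), and its dimmer second probe set stood at 0.11 (limma adjusted p = 0.601). With the replicate number as a block, the limma adjusted p of the first was 0.0719, and it was between 0.0522 and 0.0988 without any 1 array other than wild type replicate 1. AP2-5, also named SHAT1, which acts in seed shattering, had a difference of -0.17 (limma adjusted p = 0.0923) on its brightest probe set. On its others it fell by 0.65 (limma adjusted p = 0.00073) and 0.53 (limma adjusted p = 0.025), the latter between means of 4.50 and 3.97 that were both below the fungal control level. ERF78, the spikelet meristem gene FZP, was below the fungal control mean in both genotypes (means of 4.42 and 4.04). Its difference of -0.39 did not pass the test, but did without wild type replicate 2 (-0.58, limma adjusted p = 0.0117). SMOS1, an organ size gene, had a difference of 0.14, and AP2-1, a regulator of seed starch also named RSR1, of -0.05, neither of which passed the test. Within the genes named here from the AP2/ERF family, the log2 differences above 1 were those of DREB1A, DREB1B, DREB1E and DREB1G.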

How the data were processed

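Per the labels' protocols, 500 ng of total RNA per sample was turned into biotinylated cRNA for the arrays. The deposited values are log2 intensities, 1 column per array. The submitters' processing notes name RMA and Partek, without settings. The log2 scale was inferred from the values.

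Values were used as deposited. 123 Affymetrix control probe sets were left out of the tests. The mean of 10 Magnaporthe control probe sets (4.65 in wild type, 4.69 in sro) served as a level without target, since detection calls were not used here. A fold is a lower limit where the mean of the dimmer group was under that level. Each dim array then entered at its own value or at the fungal level, whichever was higher. The GEO platform annotation gave 22436 probe sets with 1 gene, and RefSeq (assembly ASM3414082v1) gave names and gene order. Array medians lay between 5.26 and 5.31. The number of arrays limits precision.

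sro was compared with wild type by limma 3.58.1 (R 4.3.3; lmFit and eBayes, no covariates, two-sided), adjusted by Benjamini-Hochberg over 57258 probe sets. SD measures the spread among 3 arrays per group. SE and limma adjusted p rest on a variance that eBayes moderated toward that of the probe sets tested, except in the model without moderation. The fit was tested on simulated data. Python 3.11.15, pandas 2.3.3 and matplotlib 3.10.9 were used for tables and figures.

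Members and lists were chosen with earlier results of these data known, so nothing is read from their shares of calls. Lists were symbol patterns, from which genes of other kinds were removed by their other names. Every gene was named in lists of at most 8 genes, and otherwise the 4 called genes with the smallest p. Further genes of the longer lists, such as MYBS3 and the remaining genes called lower among cold regulators and protection genes, were named after their values were seen. Same-numbered arrays did not deviate together over all probe sets (correlations of -0.02, -0.03 and -0.00), and the main fit was unpaired. Differently numbered arrays gave values as small (-0.01 to 0.03), so this check cannot tell whether the numbers pair the samples.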

Additional observations from a re-analysis of the deposited data

How the results depend on the processing

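DREB1E and DREB1G kept their direction and call under all 11 other settings. In the linear model without moderation DREB1G was only just called (adjusted p = 0.0489, against 0.0178 for DREB1E). The DREB1B difference stayed between 2.87 and 3.66 when single arrays were left out. DREB1A lost its call as given above. Of the 10 tested DREB probe sets, 2 to 3 were called without single arrays. The brightest DREB1C probe set turned to -0.013 after a further quantile normalization, ran from -0.070 to 0.094 without single arrays (-0.029 without sro replicate 1), and the mean of its probe sets was -0.082. AP2-1 turned to 0.014 after a further quantile normalization and ran from -0.109 to 0.0093 without single arrays. Over all probe sets, 8377 calls became 4965 without moderation and 4589 to 7907 without single arrays. Stress transcription factor calls fell from 14 to 6 without moderation and ran from 8 to 13 without single arrays. The cold regulator list had 7 to 9 calls and the protection list 5 to 8. Calls among the other AP2/ERF genes numbered 1, then 2 with a robust mean-dependent prior (SMOS1 passed), 2 with probe sets above the fungal mean only (AP2-5 passed, with fewer tested), 0 with the replicate block and 0 to 1 without single arrays. The replicate block changed no call of a DREB probe set. The causes were not tested.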
